A study of Mus musculus with 6 samples.

Results

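The genes described here make and load the molecules of MHC class I presentation. They were listed by name: B2m, H2-K1, H2-D1, H2-T23, Tap1, Tap2, Tapbp, Psmb8, Psmb9 and Nlrc5. Of these 10 genes, 9 were measured, with 26 probe sets of 45037 on the array and 9 of 18193 genes. H2-T23 had no probe set that named it alone, and 5 probe sets that named a listed gene together with other genes were left out. Liver RNA was compared between Mir137-/- mice, homozygous for a germline deletion of the miR-137 gene in the whole body, and Mir137+/+ mice, both at postnatal day 14 and without treatment, each on 3 arrays that held RNA of 1 mouse apiece. The deletion was made with Cre in E14 embryonic stem cells, chimeras were crossed with C57BL/6 mice, and most experiments of the study used offspring of heterozygote matings, on a mixed background. Values are log2 expression levels, and a gene was called when its adjusted p was below 0.05 and its change over 1.5-fold (limma, Benjamini-Hochberg over all probe sets).

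Nearly every nucleated cell carries class I molecules, which show peptides of its own proteins to CD8 T cells and are inspected by NK cells. The peptides are cut by the proteasome, carried by TAP into the endoplasmic reticulum, fitted into a heavy chain with the help of tapasin, and taken to the surface with beta-2-microglobulin. Interferon raises the genes of all these steps, and NLRC5 switches them on together by assembling with RFX, CREB and NF-Y proteins on a shared promoter module. Hepatocytes show class I at a low level at rest, and Kupffer cells, endothelium and leukocytes of the liver show more.

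Letters for CREB and NF-Y, but none for RFX, were looked for in the RefSeq promoters (GRCm38.p6). Of the 10 genes, 8 had 1 or more of the promoters used, and Tap2 and Nlrc5 none. Each window holds 250 bases before and 50 after a transcript start. The stretches of the H2-K1 promoter (chr17:34000330-34000478, minus strand), the H2-D1 promoter (chr17:35262903-35263050, plus strand) and the B2m promoter (chr2:122147543-122147648, plus strand) are shown because these 3 carry the same spacing of letters. Capitals mark GGGANNNCC (the core of NF-kB sites), TGACG (the CREB letters of the X2 box) and CCAAT on either strand (the NF-Y letters of the Y box, ATTGG when read from the other strand), and in B2m also GAAANNGAA (the repeated core of interferon response elements).
H2-K1: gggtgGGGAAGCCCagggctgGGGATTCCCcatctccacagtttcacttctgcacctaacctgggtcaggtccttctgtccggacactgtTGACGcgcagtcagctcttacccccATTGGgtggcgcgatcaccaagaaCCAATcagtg
H2-D1: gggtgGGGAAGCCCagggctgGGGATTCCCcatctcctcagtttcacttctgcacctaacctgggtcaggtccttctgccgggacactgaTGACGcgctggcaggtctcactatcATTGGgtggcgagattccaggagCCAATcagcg
B2m: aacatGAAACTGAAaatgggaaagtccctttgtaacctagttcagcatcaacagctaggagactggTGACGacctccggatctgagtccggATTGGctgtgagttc

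In all 3 promoters ATTGG began 25 bases after TGACG began. TGACG began 41 bases before the first listed start of H2-K1, 101 before that of H2-D1 and 78 before that of B2m. This pair at this spacing, looked for after the sequences had been seen, stood in 31 of 32851 windows, or 0.0944%. Of the 8 genes with a window, only these 3 held it. In H2-K1 and H2-D1 the second NF-kB match began 69 bases before TGACG, and the stretches printed were identical at 132 of 149 aligned positions (88.6%).

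Tap1 and Psmb9 are read in opposite directions, and their starts lie 226 bases apart. The stretch between them, from the first base of Psmb9 to the first base of Tap1 on the Tap1 strand (chr17:34187330-34187556), is shown because these neighbours gave the lowest adjusted p of the listed genes below. Capitals mark CCAAT and TGACG.
Psmb9 to Tap1: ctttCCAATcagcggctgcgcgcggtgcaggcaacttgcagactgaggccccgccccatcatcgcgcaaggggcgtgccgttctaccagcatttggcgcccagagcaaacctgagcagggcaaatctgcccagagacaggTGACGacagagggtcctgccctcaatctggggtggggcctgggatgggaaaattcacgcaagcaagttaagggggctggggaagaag

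Over all windows, on either strand, CCAAT stood in 37.41%, TGACG in 20.81%, GGGANNNCC in 18.56%, GAAANNGAA in 8.56% and TTCNNNGAA (the STAT letters) in 8.3%. Of the 8 genes with a window, CCAAT stood in 7, all but Psmb8. TGACG stood in 5 (B2m, H2-K1, H2-D1, Tap1 and Psmb9) and GGGANNNCC in H2-K1 and H2-D1. GAAANNGAA stood in B2m and H2-T23, and TTCNNNGAA in Psmb8 alone. The other order of the interferon letters, GAANNGAAA, was added after the sequences had been seen and stood in H2-K1 and H2-D1, against 7.52% of all windows. A match is a run of letters only, and no binding was measured.

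**Figure D1:**
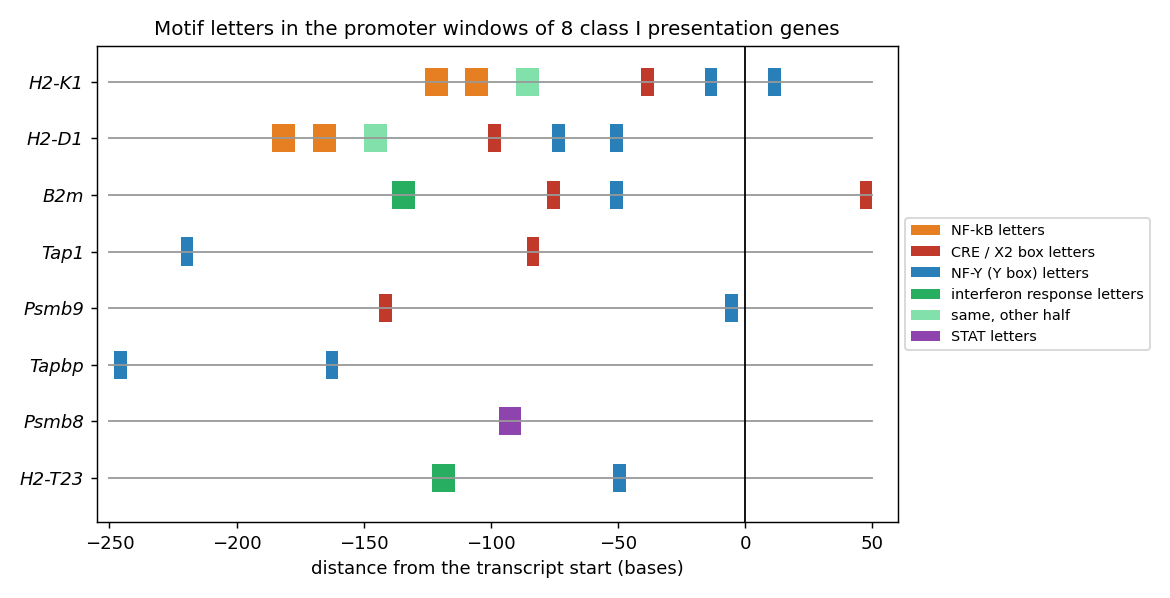
Positions of motif letters in the first listed promoter window of each of the 8 class I presentation genes, in bases from the transcript start (vertical line). H2-K1, H2-D1 and B2m each hold the CREB letters with the NF-Y letters 25 bases on.

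The arrays had medians of 4.88 to 4.91. Pearson correlations over all probe sets were 0.990 to 0.991 within Mir137-/-, 0.993 to 0.994 within Mir137+/+ and 0.982 to 0.988 between genotypes. The deletion itself could not be checked, since 0 probe sets named Mir137. The methods name male mice, but Xist, which female cells use to silence an X chromosome, read 10.91 (replicate 2) and 10.81 (replicate 3) in Mir137+/+ mice, with a range of 3.66 to 4.24 over the remaining arrays. The Y-linked gene Eif2s3y read 2.06 and 2.51 on the same 2 arrays, and 8.46 to 8.62 on the remaining ones. By both genes replicates 2 and 3 of Mir137+/+ read as female, so sex and genotype are partly confounded. Skeletal muscle transcripts stood out on Mir137-/- replicate 1, with a median marker 4.89 above the Mir137+/+ mean. Pancreas transcripts stood out on replicate 2 of both genotypes, 3.14 above that mean in Mir137-/- and 1.94 above it in Mir137+/+. Hepatocyte markers identified all arrays as liver, with Alb and Apoa1 averaging 13.74 and 13.75.

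Of the 9 class I presentation genes measured, each by its brightest probe set, Psmb9, Tap1 and Psmb8 were called lower in Mir137-/- livers and 0 were called higher, against 3.27% of all genes called lower and 2.29% called higher. With no fold threshold 5 of 9 were lower at an adjusted p below 0.05, the other two being H2-K1 and Tapbp, against 5.68% of all genes. In 8 of 9 genes every Mir137-/- array lay below every Mir137+/+ array, against 17.4% of all genes, and Nlrc5 was the exception. All 9 differences were negative, between -0.95 and -0.25, with a median of -0.43 against 0.00 over all genes. With sex as a term, or without the Mir137+/+ arrays with Xist, 0 of 9 genes were called. In whole tissue, fewer cells of a type and less RNA per cell cannot be told apart.

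Of all 26 probe sets, 5 were called lower, against 2.58% of all probe sets, and 10 were lower at an adjusted p below 0.05 without a fold threshold, against 4.36%. The 19 probe sets above the array median held all of these and had a median difference of -0.46. The other 7, of H2-D1, Tap1 and Psmb8, lay at or below the array median and differed by -0.34 to 0.08, with 0 called.

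**Figure D2:**
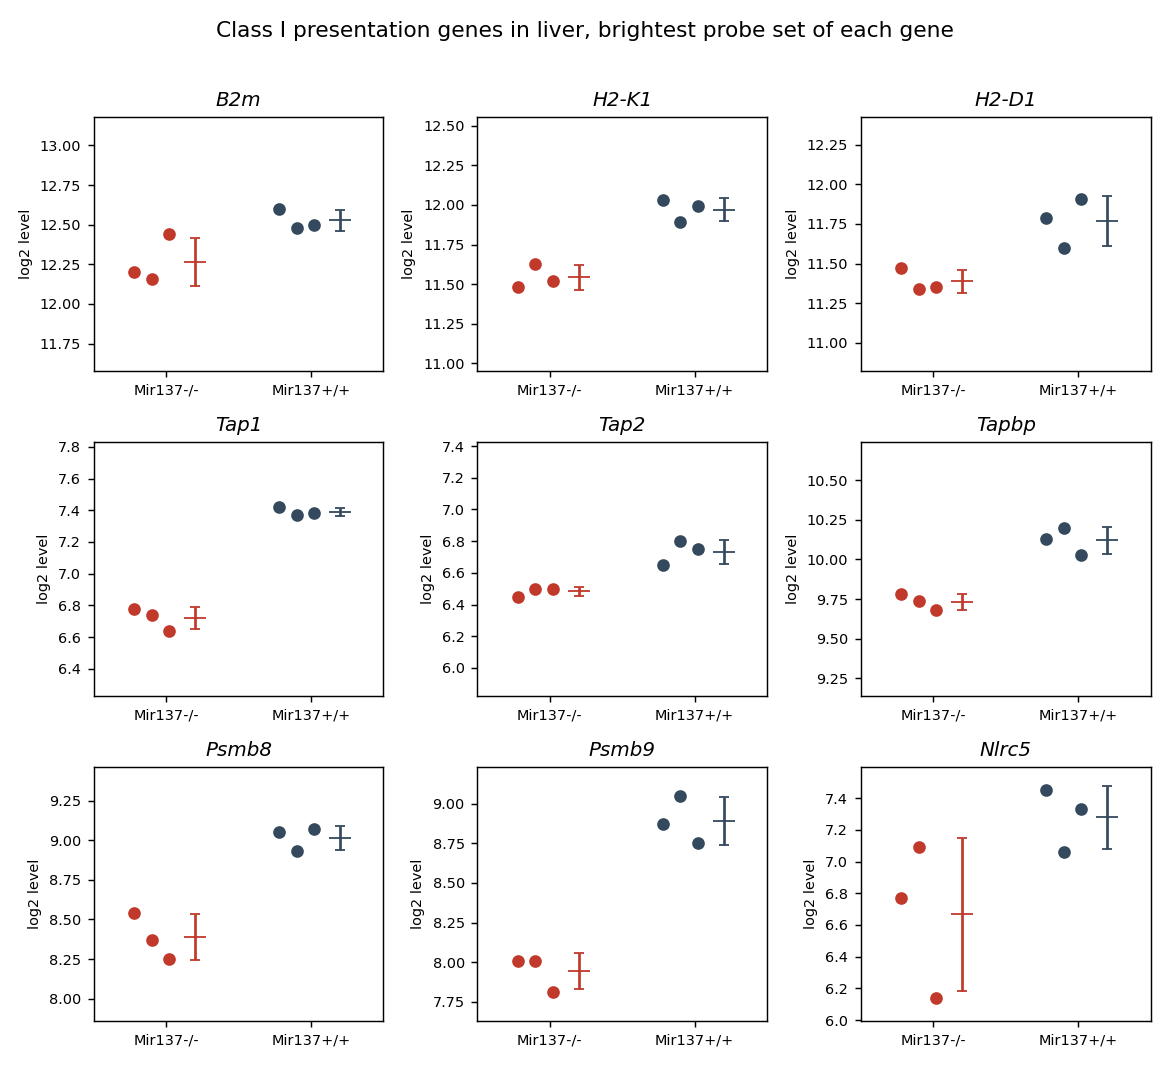
Log2 level of the 9 class I presentation genes on each array, from the brightest probe set (points: 3 Mir137-/- and 3 Mir137+/+ arrays; bars: mean ± SD; each panel spans the same range of log2 units). The Mir137-/- points lie below the Mir137+/+ points in every panel but that of Nlrc5.

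The display molecule came first. B2m encodes beta-2-microglobulin, the invariant light chain that every classical class I molecule needs to reach the surface. It was at 12.20, 12.16 and 12.44 in Mir137-/- and at 12.60, 12.48 and 12.50 in Mir137+/+. The groups did not overlap, but Mir137-/- replicate 3 came within 0.04 of the lowest Mir137+/+ array. The difference of -0.26 ± 0.11 (SE) did not pass the test (limma adjusted p = 0.198), nor did that of the second B2m probe set, 1452428_a_at, whose groups overlapped (-0.15, adjusted p = 0.521).

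H2-K1 encodes the K heavy chain, one of the classical chains that hold the peptide. Its brightest probe set, 1425336_x_at, was at 11.48, 11.63 and 11.52 in Mir137-/- and at 12.03, 11.89 and 11.99 in Mir137+/+. Every Mir137-/- array was lower, with a gap of 0.26 between the groups. The difference of -0.43 ± 0.10 had an adjusted p of 0.0316 and stayed under 1.5-fold. Of the other 3 probe sets, 1450534_x_at was called lower (-0.74, adjusted p = 0.00467), at 6.04, 6.30 and 6.27 in Mir137-/- and at 7.0, 6.91 and 6.91 in Mir137+/+. The remaining pair differed by -0.46 (1451931_x_at, adjusted p = 0.0479) and -0.43 (1427746_x_at, adjusted p = 0.0528). All 4 ran the same way with separate groups. All 4 IDs end in _x_at, which marks probes that can bind near-identical sequences, so the heavy chain genes cannot be fully told apart.

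H2-D1, the D heavy chain, had 9 probe sets. The brightest, 1451784_x_at, was at 11.47, 11.34 and 11.35 in Mir137-/- and at 11.79, 11.60 and 11.91 in Mir137+/+. The groups were separate, and the difference of -0.38 ± 0.11 did not pass (adjusted p = 0.0747). 1451683_x_at was called lower (-0.71 ± 0.14, adjusted p = 0.0178), at 9.12, 9.08 and 9.38 in Mir137-/- and at 9.98, 9.66 and 10.06 in Mir137+/+. The probe set 1426324_at carries no mark of shared probes. It was at 6.75, 6.96 and 7.04 in Mir137-/- and at 7.58, 7.22 and 7.54 in Mir137+/+, and its difference of -0.53 had an adjusted p of 0.0438.

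The H2-D1 probe sets did not all move alike. 1425545_x_at differed by -0.38 (adjusted p = 0.0514) and 1450170_x_at by -0.67 (adjusted p = 0.109), both with separate groups. 1452544_x_at went the other way at 0.24 (adjusted p = 0.515), with 6.31, 6.39 and 5.77 in Mir137-/- and 5.75, 5.79 and 6.21 in Mir137+/+. The groups overlapped there, with Mir137-/- replicate 3 beside the low Mir137+/+ arrays. The 3 dim probe sets differed by -0.08 to 0.02.

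**Figure D3:**
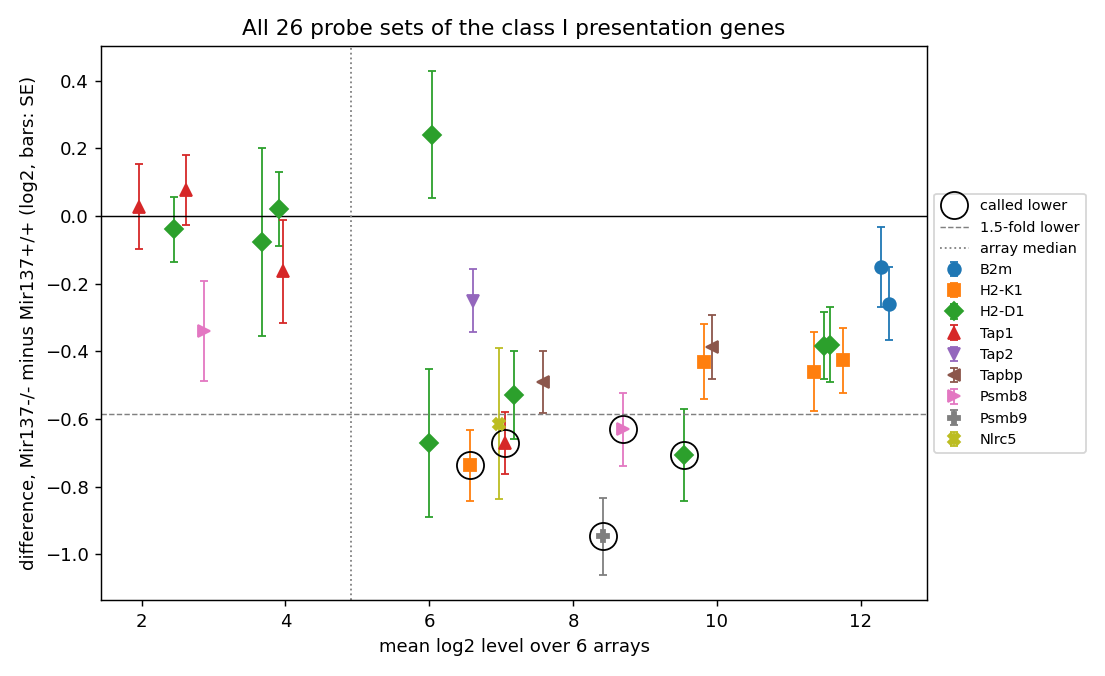
Difference between Mir137-/- and Mir137+/+ for all 26 probe sets (vertical axis, log2, bars: SE) against their mean log2 level over 6 arrays (horizontal axis), by gene. The 5 ringed probe sets were called lower, and the 7 at or below the array median (dotted line) lie between -0.34 and 0.08.

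Transport and loading followed. TAP1 and TAP2 form the pump that moves peptides into the endoplasmic reticulum. Tap1 was at 6.78, 6.74 and 6.64 in Mir137-/- and at 7.42, 7.37 and 7.38 in Mir137+/+ (1416016_at). The groups were tight and 0.59 apart. Tap1 fell by 0.67 ± 0.09 on the log2 scale, to 0.629 of the Mir137+/+ level (adjusted p = 0.00379). Its 3 dim probe sets differed by -0.16, 0.08 and 0.03, none called, and with the mean of all 4 in place of the brightest Tap1 was no longer called (-0.18, adjusted p = 0.234).

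Tap2, by its only probe set, was at 6.45, 6.50 and 6.50 in Mir137-/- and at 6.65, 6.80 and 6.75 in Mir137+/+. All Mir137-/- arrays were lower, by a smaller step than for Tap1. The difference of -0.25 ± 0.09 did not pass (adjusted p = 0.149). Whether the changes of the TAP subunits differ was not tested.

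Tapbp encodes tapasin, which tethers empty heavy chains to TAP and favours tightly bound peptides. It was at 9.78, 9.74 and 9.68 in Mir137-/- and at 10.13, 10.20 and 10.03 in Mir137+/+ (1421812_at). The second probe set, 1450378_at, was at 7.42, 7.30 and 7.30 in Mir137-/- and at 7.83, 7.80 and 7.86 in Mir137+/+. Both had separate groups and adjusted p below the threshold (-0.39, 0.0429; -0.49, 0.0155), and both stayed under 1.5-fold.

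The immunoproteasome genes included the largest step of the 9, that of Psmb9. Psmb8 and Psmb9 encode LMP7 and LMP2, catalytic subunits that interferon brings into the proteasome in place of PSMB5 and PSMB6 and that shift the peptides cut towards ends that fit class I. Psmb9 was at 8.01, 8.01 and 7.81 in Mir137-/- and at 8.87, 9.05 and 8.75 in Mir137+/+. The groups were 0.74 apart, against SDs of 0.12 in Mir137-/- and 0.15 in Mir137+/+. Psmb9 fell by 0.95 ± 0.11 on the log2 scale, to 0.519 of the Mir137+/+ level (adjusted p = 0.00228).

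Psmb8 was at 8.54, 8.37 and 8.25 in Mir137-/- and at 9.05, 8.93 and 9.07 in Mir137+/+ (1422962_a_at). The groups were separate, with Mir137-/- replicate 3 lowest. Psmb8 fell by 0.63 ± 0.11, to 0.646 of the Mir137+/+ level (adjusted p = 0.0107), close to the fold threshold. The call was lost without Mir137-/- replicate 3 (-0.56, adjusted p = 0.0298, under 1.5-fold) and without Mir137+/+ replicate 3 (-0.60, adjusted p = 0.051). Its dim probe set, 1444619_x_at, differed by -0.34 (adjusted p = 0.223).

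Set against the constitutive subunit it replaces on the same array, each immunoproteasome subunit was lower in Mir137-/-. Psmb9 minus Psmb6, relative to the Mir137+/+ mean, was -1.02, -1.13 and -1.33 in Mir137-/- and -0.03, 0.24 and -0.21 in Mir137+/+. Psmb8 minus Psmb5 was -0.42, -0.60 and -0.72 in Mir137-/- and 0.14, -0.10 and -0.05 in Mir137+/+. Psmb10 encodes MECL-1, the immunoproteasome subunit that replaces PSMB7, and Psmb10 minus Psmb7 was -0.48, -0.54 and -0.80 in Mir137-/- and 0.16, 0.12 and -0.27 in Mir137+/+. The groups were separate in all 3 pairs, with differences of -1.16, -0.58 and -0.61. The constitutive subunits enter these values, and alone Psmb6 differed by 0.21, Psmb5 by -0.05 and Psmb7 by 0.14, none called. The levels of Psmb9, Psmb8 and Psmb10 enter too, so the pairs are no separate check that these genes were lower. The exact two-sided permutation p was 0.1 for each, the smallest that 3 arrays against 3 allow.

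Nlrc5, the class I transactivator, had the widest spread of the 9 genes in both genotypes. It was at 6.77, 7.09 and 6.14 in Mir137-/- and at 7.45, 7.06 and 7.33 in Mir137+/+. Mir137-/- replicate 2 lay 0.03 above Mir137+/+ replicate 2, and the SD was 0.48 in Mir137-/- against 0.20 in Mir137+/+. The difference of -0.61 ± 0.22 did not pass (adjusted p = 0.147), and without Mir137-/- replicate 3 it was -0.35.

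The median of the 9 genes lay below the Mir137+/+ mean by a similar step on each Mir137-/- array. It was -0.48, -0.38 and -0.45 on the Mir137-/- arrays and 0.03, -0.05 and 0.02 on the Mir137+/+ arrays. Within Mir137-/-, replicate 3 was the lowest in 5 of 9 genes. Within Mir137+/+, replicate 2 was the lowest in 6 of 9.

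Against Mir137+/+ replicate 1, the control array without Xist, the step ran the same way, with no replicate of that control. The mean of the 3 Mir137-/- arrays minus Mir137+/+ replicate 1 was -0.93 for Psmb9, -0.70 for Tap1, -0.66 for Psmb8, -0.78 for Nlrc5, -0.49 for H2-K1, -0.40 for Tapbp, -0.40 for H2-D1, -0.33 for B2m and -0.17 for Tap2. All 9 were negative. With sex as a term, adjusted p was 0.0537 for Psmb9, 0.0632 for Tap1 and 0.115 for Psmb8 (limma). Because only Mir137+/+ arrays carry Xist, the differences with the term and without the arrays with Xist equal those against Mir137+/+ replicate 1. They are no further check of the direction.

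The other genes of the pathway were grouped by role in 8 lists, of which 80 of 102 genes were measured. At an unadjusted p below 0.05 (limma, any fold), the lists with 0 calls held 2 lower heavy chains, 1 lower gene of loading and folding, 1 lower proteasome partner, 1 higher constitutive subunit, 1 lower and 1 higher peptidase, and 2 higher genes of interferon receptors and kinases. None of these passed the 1.5-fold threshold, nor did any by the methods' t-test. Of the classical and nonclassical heavy chains not listed above, 9 of 23 were measured, and 0 were called in either direction (median -0.06). Among them H2-Bl, H2-Q2, H2-M10.1, H2-M9 and H2-T24 had mean levels of 2.99 to 4.49, below the array medians, which limits what they can show. H2-Q10, a liver-made secreted class I molecule, differed by -0.16 (adjusted p = 0.443), with 11.78, 11.90 and 12.07 in Mir137-/- and 12.04, 12.02 and 12.17 in Mir137+/+. H2-M3, which presents formylated peptides, differed by -0.06 (adjusted p = 0.775).

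Of 8 measured class I-like molecules, 0 were called lower and 1 was called higher (median 0.05). That gene was Cd1d2, a lipid-presenting relative of CD1d, at 5.46, 5.11 and 5.21 in Mir137-/- and 4.32, 4.31 and 4.27 in Mir137+/+. Its groups were 0.79 apart (0.96 ± 0.11, adjusted p = 0.00194). Whether the mixed strain background plays a part in the Cd1d2 difference was not tested. Cd1d1, which presents lipids to NKT cells, differed by -0.02 (adjusted p = 0.940), and Azgp1, a secreted class I-like glycoprotein, by 0.02 (adjusted p = 0.946).

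The general machines that class I shares with other proteins held no called gene. Of 11 measured genes of loading and folding in the endoplasmic reticulum, 0 were called (median 0.02). Calr, the calreticulin of the loading complex, differed by 0.17 (adjusted p = 0.347), and Hspa5, the chaperone BiP, by 0.22 (adjusted p = 0.298). Outside the naming rule and named after its value was seen, Erap1, the aminopeptidase that trims peptides for class I, was at 8.0, 7.99 and 8.19 in Mir137-/- and at 8.55, 8.52 and 8.47 in Mir137+/+. It was the only gene of that list with an adjusted p below 0.05 (-0.45, 0.028), under 1.5-fold.

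All 14 constitutive subunits of the 20S proteasome were measured and 0 were called, with differences of -0.13 to 0.27 (median 0.05). Psmb4 differed by -0.02 (adjusted p = 0.933) and Psma6 by 0.02 (adjusted p = 0.940). Of the interferon-inducible partners of the proteasome, 3 of 4 were measured and 0 were called. In all 3 every Mir137-/- array lay below every Mir137+/+ array, against 17.4% of all genes. Psme1, a subunit of the PA28 activator, differed by -0.13 (adjusted p = 0.421) and Pomp, an assembly factor, by -0.12 (adjusted p = 0.487). Psmb10, a gene of the subunit pairs above, was at 9.03, 8.98 and 8.71 in Mir137-/- and at 9.47, 9.44 and 9.22 in Mir137+/+ (-0.47, adjusted p = 0.0533). Of 9 cytosolic peptidases that trim or destroy peptides, 0 were called, with Lap3 at 0.06 (adjusted p = 0.796) and Blmh at -0.21 (adjusted p = 0.348).

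Among 16 measured transcription factors that act on class I genes, 4 were called lower and 0 higher (median -0.26). Irf2, an interferon regulatory factor that occupies interferon response elements, was at 6.60, 7.05 and 6.92 in Mir137-/- and at 8.12, 8.16 and 7.99 in Mir137+/+ (-1.23 ± 0.13, adjusted p = 0.00128). Irf9, the DNA-binding part of ISGF3, was at 6.45, 6.25 and 6.23 in Mir137-/- and at 7.39, 6.83 and 7.25 in Mir137+/+ (-0.85 ± 0.15, adjusted p = 0.0131). The groups of both were separate.

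Irf7, which drives type I interferon, was at 6.46, 6.11 and 5.89 in Mir137-/- and at 6.95, 7.07 and 6.76 in Mir137+/+ (-0.77 ± 0.16, adjusted p = 0.0209). Rfxank, an RFX subunit on the class I and class II promoter module, was at 5.63, 5.72 and 5.48 in Mir137-/- and at 6.23, 6.11 and 6.25 in Mir137+/+ (-0.59 ± 0.10, adjusted p = 0.0121), at the edge of the fold threshold. All Mir137-/- arrays were lower for both. Rela, the NF-kB subunit p65, differed by 0.04 (adjusted p = 0.875), and Irf3 by -0.39 (adjusted p = 0.0522). Outside the naming rule, the NF-Y gene Nfya and Creb1 had a limma adjusted p below 0.05 (-0.52, 0.0254; -0.44, 0.0335), under 1.5-fold. The other NF-Y genes, Nfyb and Nfyc, differed by 0.23 and 0.09 (adjusted p = 0.329 and 0.730). With 1 array left out, 2 to 4 of the factors were called (2 without Mir137+/+ replicate 1 or 3), and with sex as a term 2 were. Of 10 interferon receptors, kinases and their regulators, 0 were called (median 0.10), with Ifnar2, a type I interferon receptor chain, at 0.13 (adjusted p = 0.493) and the kinase Jak1 at 0.30 (adjusted p = 0.104).

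**Figure D4:**
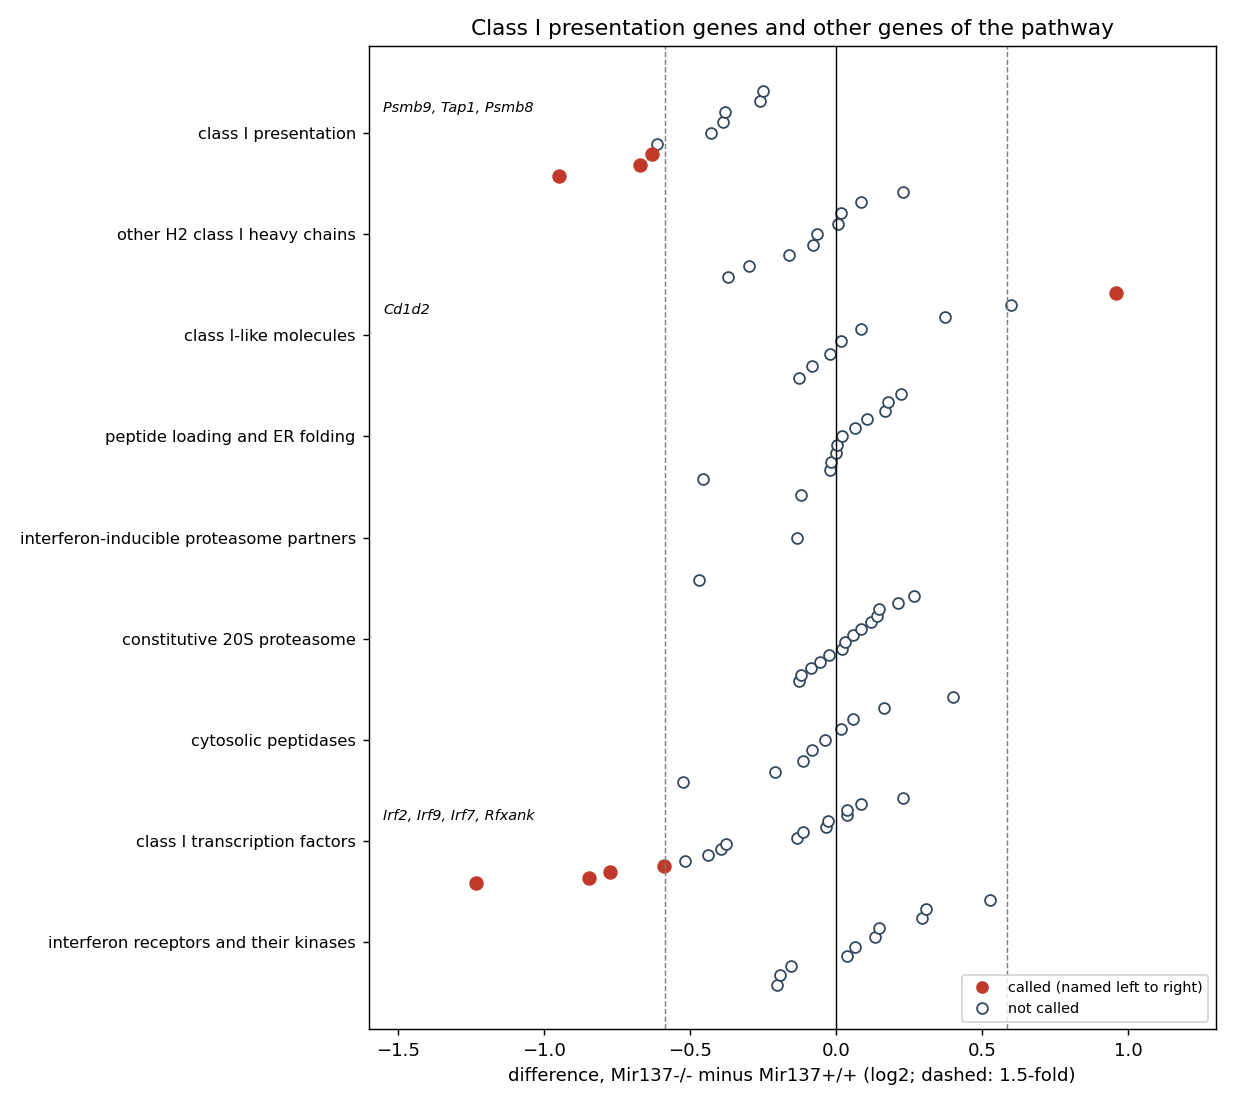
Difference between Mir137-/- and Mir137+/+ (horizontal axis, log2) of each measured gene in the class I presentation list and in 8 lists of other pathway genes (rows). Filled points were called, and dashed lines mark 1.5-fold. Called genes lie in the class I presentation row (3 lower), the transcription factor row (4 lower) and the class I-like row (1 higher).

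Markers of neutrophils and B cell precursors and class II genes were lower on the same arrays. Of 9 measured neutrophil markers 7 were called lower (median -1.51), and the log2 of their summed signal was 9.72 to 10.41 in Mir137-/- and 11.42 to 11.84 in Mir137+/+. S100a8, S100a9 and Ngp, which encode abundant neutrophil proteins, differed by -1.57, -1.71 and -2.03. Of 9 markers of B cell precursors 6 were called lower (median -0.66), with a summed signal of 7.93 to 8.16 in Mir137-/- and 8.88 to 9.06 in Mir137+/+. Cd79b, a chain of the B cell receptor, differed by -0.65, and Vpreb1 and Igll1, which form the surrogate light chain, by -2.08 and -1.32. Of 9 markers of MHC class II and dendritic cells 3 were called lower (median -0.48), with a summed signal of 10.01 to 10.59 in Mir137-/- and 10.78 to 11.20 in Mir137+/+. These were Cd74, the invariant chain (-0.76), and the class II chains H2-Ab1 (-1.45) and H2-Eb1 (-0.86), while H2-Aa differed by -0.74 (adjusted p = 0.0528). The summed signals did not overlap in any of these 3 lists, and their part in the class I differences was not tested. The 3 called genes of the class II and dendritic list belong to class II presentation, and the markers of dendritic cells themselves, named outside the rule, were not called. Batf3 differed by 0.25, Itgax by 0.03, Flt3 by -0.24 and Xcr1 by -0.08, with adjusted p of 0.247, 0.926, 0.462 and 0.767 in that order, and the mean level of Xcr1 was 2.97, below the array medians.

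Few markers of other cell types were called. Of 14 T and NK cell markers 1 was called lower, the granzyme gene Gzma (-0.96), with a summed signal of 9.02 to 9.24 in Mir137-/- and 9.19 to 9.46 in Mir137+/+. Ccl5, a chemokine of T and NK cells, differed by -0.27 (adjusted p = 0.390). Of 10 Kupffer cell markers 0 were called (median 0.04), with Cd5l and Csf1r at 0.33 and 0.04. Their summed signal was 13.12 to 13.23 in Mir137-/- and 13.03 to 13.09 in Mir137+/+, higher in Mir137-/- without overlap. Of 10 endothelial markers 0 were called (median 0.07), with Clec4g and Stab2 at -0.02 and -0.01. Named outside the rule, the endothelial marker Kdr was higher by 0.48 (limma adjusted p = 0.0230), under 1.5-fold. Hepatocyte markers differed by a median of 0.00, with a summed signal of 16.10 to 16.11 in Mir137-/- and 16.10 to 16.12 in Mir137+/+, and 0 of 7 were called. At an unadjusted p below 0.05, 2 Kupffer cell, 2 endothelial and 1 hepatocyte marker were higher and 0 were lower (limma). At that threshold 3 T and NK cell markers were lower (Gzma, Klrk1 at -0.42 and Ncr1 at -0.39) and 1 was higher (Cd3d, 0.29). Of these, Gzma and Ncr1 had an adjusted p below 0.05, and Ncr1 stayed under 1.5-fold.

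Of 10 stellate cell and fibroblast markers 1 was called lower (Lrat, -0.67) and 1 higher (Rgs5, 0.80), with the collagen gene Col3a1 at -0.33 (adjusted p = 0.0952) and the proteoglycan gene Dcn at 0.16 (adjusted p = 0.335). Among cholangiocyte markers 0 of 5 were called, with Epcam at -0.08 and Sox9 at -0.30, and among erythroid markers 0 of 7, with Tfrc at -0.10 and Alas2 at 0.04. Without the arrays with pancreas transcripts, 1 of 9 class I genes was called (Psmb9), and the median was -0.51.

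**Figure D5:**
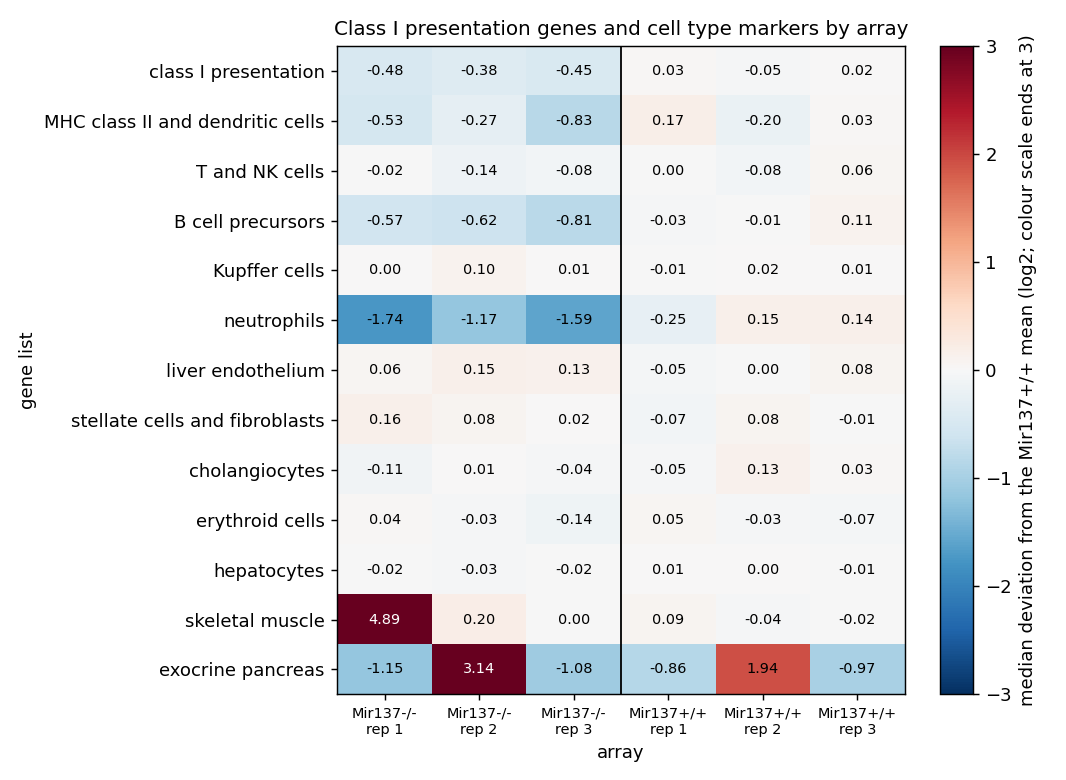
Median log2 deviation from the Mir137+/+ mean, by array (columns), of the class I presentation genes and of the marker lists of 12 cell types (rows); colours end at 3. The class I row is -0.48 to -0.38 on the Mir137-/- arrays and -0.05 to 0.03 on the Mir137+/+ arrays, beside lower neutrophil and B cell precursor rows and a class II and dendritic row of -0.83 to -0.27 on the Mir137-/- arrays and hepatocyte, Kupffer and endothelial rows near 0.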

How the data were processed

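Liver RNA of 3 Mir137-/- and 3 Mir137+/+ mice was hybridised to an Affymetrix GeneChip for the whole mouse genome. The table deposited by the authors holds log2 values, 1 per probe set and array. The methods name RMA with baseline-to-mean normalization and the labels name GCRMA, with no version, so the algorithm is not settled. Values ran from 1.22 to 13.79, and the number of arrays limits the precision.

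After 64 control probe sets were left out, 45037 were fitted with limma (version 3.58.1; lmFit, eBayes; R 4.3.3) and adjusted by Benjamini-Hochberg over all of them. Calls needed an adjusted p below 0.05 and over 1.5-fold, as in the methods. Probe sets were named from the platform annotation (34945 with 1 symbol, 932 with several, 9160 with none; 34741 matched the reference by Entrez gene), and a gene was read from its probe set with the highest mean. Replicates are separate mice, and each test sets the difference between genotypes against the spread between mice. In Mir137+/+ that spread includes arrays with and without Xist.

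The text names all members, and from each pathway list the called genes (up to 6, smallest p first) and the 2 uncalled genes with the highest level. From each cell type list it takes the 2 with the highest level and some called ones. Erap1, Nfya, Nfyb, Nfyc, Creb1, Kdr, dendritic cell markers and some T and NK cell markers were named outside this rule. Members and lists were chosen with earlier results of these data known. Skeletal muscle and pancreas markers are given by their median. Promoters are from RefSeq (GRCm38.p6; 32851 windows of 27025 genes). The code was tested on simulated data. Alternatives were the methods' t-test, no adjustment, no fold threshold, eBayes with trend and robust, array weights (statmod 1.5.0), median centring, quantile normalization, leaving out the dimmest 40% of probe sets, no _s_at or _x_at probe sets, 1 probe set a gene, the mean of probe sets, the replicate number as a block, sex as a term, and leaving out arrays.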

Additional observations from a re-analysis of the deposited data

How the results depend on the processing

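No direction reversed among the class I presentation genes under the alternatives run. Several of these reuse the same difference, and leaving out an array cannot reverse a gene with separate groups, so this is a weak check. The counts of the 8 pathway lists can change in size but cannot reverse. The alternatives did not cover the cell type markers and subunit pairs. The count of probe sets called lower (5 of 26) became 1 with the methods' t-test after Benjamini-Hochberg, 10 with no fold threshold, 3 without _s_at and _x_at probe sets, 0 with sex as a term, 0 without the Mir137+/+ arrays with Xist, 2 without the pancreas arrays, and 3 to 6 with 1 array left out (3 without Mir137+/+ replicate 3). The count of genes called lower (3 of 9) became 1, 5, 0, 0 and 1 under the same t-test, no fold threshold, sex, Xist and pancreas settings, 1 with the mean of a gene's probe sets, and 2 to 3 with 1 array left out (2 without replicate 3 of either genotype). The median difference (-0.43) was -0.57 without _s_at and _x_at probe sets, -0.49 with sex as a term and without the Xist arrays, -0.51 without the pancreas arrays, and -0.47 to -0.36 with 1 array left out. The count of called class I transcription factors (4) became 0 with the adjusted t-test and without the Xist arrays, 2 without _s_at and _x_at probe sets, with sex as a term or without the pancreas arrays, 6 with no fold threshold, and 2 to 4 with 1 array left out. The count of called class I-like genes (1) became 2 without adjustment, 0 without the Xist arrays and 1 to 2 with 1 array left out. That of endoplasmic reticulum genes (0) became 1 with no fold threshold. Fewer arrays enter the fits without Xist or pancreas arrays, and without the Xist arrays the lone Mir137+/+ array is assumed to vary like the Mir137-/- arrays; the causes of the other shifts were not tested. With the replicate number as a block (replicate block), 5 probe sets and 3 genes were called. Same-numbered arrays had residual correlations of 0.08, 0.21 and 0.00, and the labels do not pair them; replicate 2 of both genotypes also shares pancreas transcripts. B2m (-0.26) had an adjusted p of 0.0369 to 0.538 over the alternatives, the lowest with eBayes with trend and robust. Of the 26 probe sets, 7 lay at or below the array median, which limits what they can show.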

Other observations

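The spacing of TGACG and ATTGG found in B2m, H2-K1 and H2-D1 also stood in the promoters of 24 other genes, of which 20 were measured. Of these, 0 were called in Mir137-/- livers (limma, lowest adjusted p 0.0718), 10 were negative, and the differences ran from -0.41 to 0.38 with a median of -0.03. H2-M3, a class I heavy chain gene, was among them, with a mean of 7.22 in Mir137-/- and 7.28 in Mir137+/+ (-0.06 ± 0.10 (SE), adjusted p = 0.775). The spacing was chosen after the sequences had been seen, and these values are a description.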
